A study of Homo sapiens with 2 samples.

Results

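Interferons are secreted proteins that warn cells of virus infection. They bind paired receptors at the cell surface, Janus kinases on the receptor tails phosphorylate STAT proteins, and STAT and IRF proteins then switch on interferon-stimulated genes from a promoter element called the interferon-stimulated response element, or ISRE. Many of these genes encode antiviral proteins, and others build the MHC class I molecules that display peptides to CD8 T cells and the machinery that loads them. Tumour cells of epithelial origin, ovarian carcinoma among them, can express interferon-stimulated and MHC class I genes at appreciable levels without added interferon. ZBED2 is a zinc finger protein of the BED type that has been described in pancreatic cancer cells as an antagonist of IRF1 at interferon-responsive promoters.

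The 41 genes described here are 40 interferon-stimulated, IRF, STAT and antigen presentation genes listed for their function, and ZBED2, which was selected because it had the largest rise in this same comparison. The high ratio of ZBED2 is therefore a description and supports nothing further. Of the 41 genes, 40 were matched to probes through their RefSeq accessions, out of 17240 genes named on the array, and IFI27 was not matched. All 40 passed the filter on signal, as did 16150 of the named genes. Each gene was read from its brightest probe, and a probe passed when at least 1 of the 2 RNAs lay well above background in both hybridizations.

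The 2 RNAs came from the human ovarian adenocarcinoma line SKOV3. One was from cl-sh3, a stable clone carrying a short hairpin RNA against the transcription factor RUNX2 from the lentiviral vector pLKO.1-puro. The other was from the mock-transfected control clone, made with the same vector carrying a scramble sequence, and both had been selected with puromycin. Each is a single clone, cl-sh3 was picked by the study because its cellular effects were stronger, and a difference between the clones cannot be told apart from a difference caused by the knockdown. The labels mention no interferon treatment.

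The RNAs were compared on 2-colour Agilent whole genome arrays in 2 hybridizations, with cl-sh3 in Cy5 and control in Cy3 in the first and the dyes reversed in the second. Both hybridizations used the same RNAs on 1 slide and make 1 replicate, so no test between the clones was possible, no p-value is given, and the gap between the hybridizations shows technical error only. All ratios below are log2 of cl-sh3 over control, so that 1 stands for a 2-fold higher and -1 for a 2-fold lower signal in cl-sh3. Between 77.3% and 93.9% of the spots of a channel were well above background. The brightest RUNX2 probe gave -2.04 and -1.30 in the 2 hybridizations, while the other probes named RUNX2 that passed averaged 0.02 and -0.23. The epithelial genes KRT8, KRT18 and EPCAM were well above background in both RNAs, while the leukocyte gene PTPRC was dim, with normalized signals between 195 and 220. PTPRC also carried the well-above-background flag, so the flag alone does not show that a gene is expressed in these cells.

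The sequences that tie most of these genes together are the ISRE cores before their starts. The core was taken as GAAANNGAAA, read on both strands in the 250 bases before the start, where tandem copies may overlap. RefSeq promoters (GRCh38.p14) were at hand for 31 of the 41 genes, and 22 of these (71.0%) held the core, against 1014 of the 27305 genes of the same table (3.71%) and 1061 of its 35116 promoters (3.02%). The 8 stretches below are shown because they cover an antiviral modifier, IFIT, MX and OAS genes, a membrane factor and the MHC class I machinery. Each reads 5′ to 3′ on the strand of its gene, with every match in capitals. A match with TTTC at its left end is the core on the opposite strand.

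ISG15, chr1:1013375-1013414, + strand: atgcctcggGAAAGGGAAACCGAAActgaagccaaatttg
IFIT1, chr10:89392505-89392544, + strand: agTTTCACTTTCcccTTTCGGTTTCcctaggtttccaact
MX1, chr21:41431839-41431878, + strand: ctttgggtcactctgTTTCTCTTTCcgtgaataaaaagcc
OAS3, chr12:112938447-112938473, + strand: cggagagccgggcggGAAAACGAAAcc
BST2, chr19:17405730-17405769, - strand: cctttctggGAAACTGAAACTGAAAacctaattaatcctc
TAP1, chr6:32853808-32853847, - strand: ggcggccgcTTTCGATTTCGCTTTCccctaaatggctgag
TAPBP, chr6:33314079-33314107, - strand: cctttggagGAAAGTGAAAGTGAAAggag
B2M, chr15:44711364-44711403, + strand: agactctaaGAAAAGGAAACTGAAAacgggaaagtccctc

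In ISG15, BST2, TAP1, TAPBP and B2M the matches overlap in a tandem run, and OAS3 and MX1 show a single match in the printed stretch. The 250 bases before the start of ZBED2 are shown because ZBED2 is the gene with the large ratio. They held neither the ISRE core nor a RUNX core, taken as TGTGGT or TGCGGT on either strand, which says only that these letters are not in this window.

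ZBED2, chr3:111595347-111595596, - strand: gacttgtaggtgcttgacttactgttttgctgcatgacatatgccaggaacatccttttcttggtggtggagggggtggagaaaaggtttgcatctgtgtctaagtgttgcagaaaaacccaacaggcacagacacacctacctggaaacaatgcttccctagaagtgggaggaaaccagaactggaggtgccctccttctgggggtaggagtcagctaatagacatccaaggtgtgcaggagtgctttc

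ZBED2 stood far from the rest of the genes. Its normalized signal was 10419 in cl-sh3 and 1803 in control in the first hybridization, and 8335 in cl-sh3 and 1512 in control in the second. Both cl-sh3 values lay above both control values, and the ratios of 2.53 and 2.46 differed by only 0.07. The mean of 2.50 corresponds to a 5.64-fold higher signal and ranks 1 among the 16150 named genes measured, which is what the gene was chosen for. PFDN6, LMNB1 and DLST followed it in rank. The gene rests on a single probe.

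ZBED2 lies inside the CD96 gene, on chromosome 3. CD96, a receptor of T and NK cells, gave -0.08 and 0.18 in the 2 hybridizations by a dim probe, for which 3 of the 4 signals were well above background. A second CD96 probe averaged -0.27. Of the 4 protein-coding genes on each side of ZBED2, 6 were measured, and their mean ratios ran from -0.83 (PHLDB2) to 0.20 (ABHD10). No other measured gene of this stretch thus had a mean ratio above 0.20. The other BED-type zinc finger genes measured, ZBED1, ZBED3, ZBED4 and ZBED5, had mean ratios between -0.44 and 0.10.

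**Figure D1:**
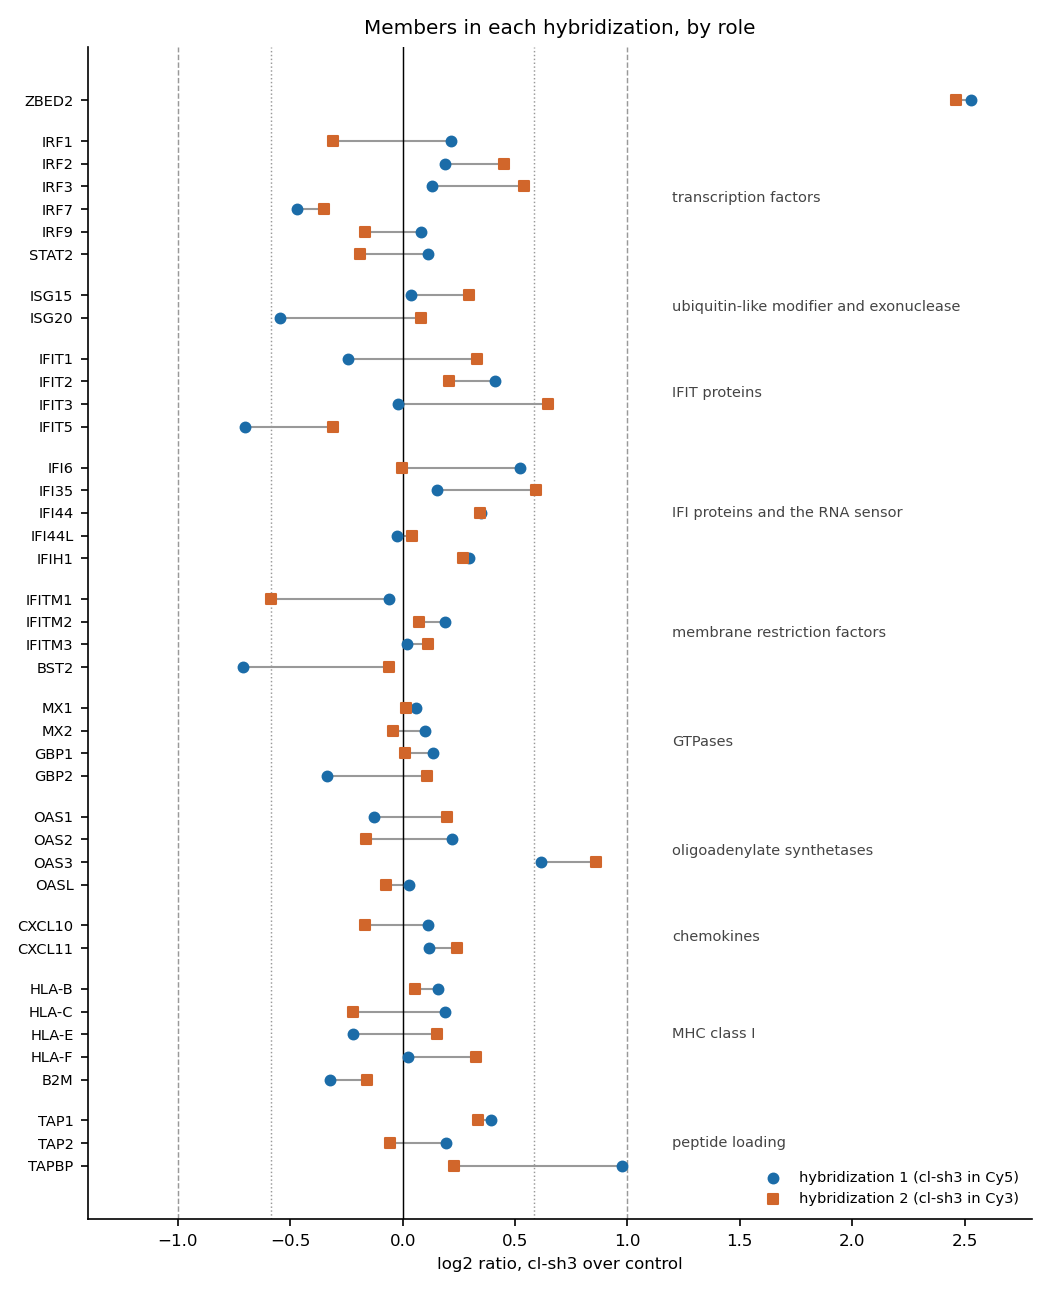
Log2 ratio of cl-sh3 over control (x axis) for the 40 measured genes (y axis, grouped by role), with a circle for hybridization 1, a square for hybridization 2 and a line joining them. Dotted lines mark 1.5-fold and dashed lines 2-fold. ZBED2 sits at 2.53 and 2.46, OAS3 has both points beyond the 1.5-fold line, and the points of 17 other genes fall on opposite sides of 0.

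By contrast, the interferon, IRF and antigen presentation genes were close to the control as a group. ZBED2 was the only one of the 40 measured genes past 2-fold on the higher side in both hybridizations, where 0.136% of all named genes stood. On the lower side there was no member, beside 0.52% of all named genes. At 1.5-fold, OAS3 joined ZBED2 on the higher side, where 1.6% of all named genes stood. On the lower side at 1.5-fold there was again no member, against 2.61% of all named genes. Since the rule selected ZBED2 from this contrast, its part in these counts carries no weight.

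Without ZBED2, the median ratio of the 39 measured genes was 0.04, beside 0.01 for all named genes. It was 0.11 in the first hybridization and 0.07 in the second. The mean ratios ran from -0.51 to 0.74. Of these, 25 lay above 0 and 14 below, beside 8548 above and 7602 below among the 16150 named genes. Within 1.5-fold of the control were 37 of the 39 (94.9%), as were 92.8% of all named genes. The 2 hybridizations gave opposite signs for 17 of the 39 genes (43.6%), against 40.7% of all named genes. The median gap between hybridizations was 0.26 for these genes and 0.23 for all named genes. Taken without its sign, the mean ratio had a median of 0.17 for these genes and 0.14 for all named genes.

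**Figure D2:**
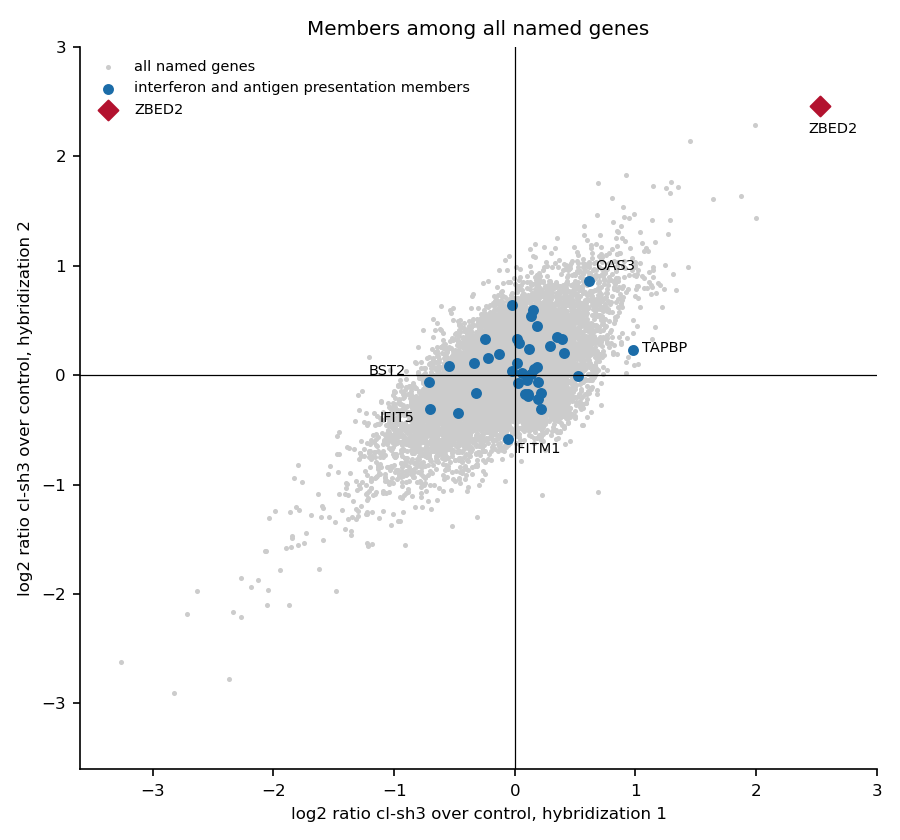
Log2 ratio of cl-sh3 over control in hybridization 1 (x axis) against hybridization 2 (y axis) for the 16150 named genes (grey), the 39 interferon and antigen presentation genes (blue) and ZBED2 (red diamond). The blue points lie within the central cloud, with OAS3 at its upper right edge and TAPBP at its right edge, while ZBED2 lies apart from the cloud at the upper right.

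Transcription factors come first in the pathway. The median ratio of the 6 genes was -0.04, with 0.12 in the first hybridization and -0.18 in the second, and 3 of them changed sign between hybridizations. IRF1, an activator of interferon and MHC class I genes that is itself induced by interferon gamma, gave 0.22 and -0.31. Its normalized signals were 1771 and 1462 in cl-sh3 and 1525 and 1812 in control. Overlap or its absence, here and below, compares 2 technical readings of each RNA and is no test. For IRF1 the readings overlapped and no difference could be seen. IRF9 (0.08 and -0.17) and STAT2 (0.11 and -0.19), which form the ISRE-binding complex of type I interferon signalling together with a STAT partner, behaved in the same way.

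IRF2, a repressor at ISREs, gave 0.19 and 0.45, but its dimmer probe gave -0.11 and -0.01. IRF3, the factor activated by viral nucleic acid, gave 0.13 and 0.54. IRF7, which amplifies interferon alpha production, had normalized signals of 3317 and 3507 in cl-sh3 and 4601 and 4467 in control. Both cl-sh3 values of IRF7 lay below both control values, and the ratios were -0.47 and -0.35, short of 1.5-fold. Its second probe, against another transcript accession, gave 0.15 and -0.03, so the lower signal was seen with 1 of 2 probes.

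Among the effectors, ISG15 encodes a ubiquitin-like protein that is coupled to other proteins after interferon. It gave 0.04 and 0.29. ISG20, an exonuclease that degrades viral RNA, gave -0.55 and 0.08. Both genes carry the ISRE core, and neither showed a ratio that held in size across the dye swap.

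The IFIT proteins bind viral RNA that lacks the host's cap marks, and their genes lie side by side on chromosome 10. Their median ratio was 0.18, but it turned from -0.13 in the first hybridization to 0.27 in the second. IFIT1 gave -0.24 and 0.33, and IFIT3 gave -0.02 and 0.64, so both changed sign. IFIT2 gave 0.41 and 0.20, and IFIT5 gave -0.70 and -0.31. The normalized signals of IFIT5 were 1299 and 1735 in cl-sh3 against 2116 and 2154 in control, without overlap. A second IFIT5 probe gave -0.21 and 0.03. None of the 4 IFIT genes was past 1.5-fold in both hybridizations.

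The group of IFI proteins and the RNA sensor IFIH1 had a median of 0.28. Mean ratios lay above 0 for 5 of 5 genes, as they did for 8548 of the 16150 named genes. In 2 of these 5 genes the sign differed between the hybridizations. IFI44, an antiviral protein induced by type I interferon, gave 0.35 in both hybridizations. IFIH1, also called MDA5, the cytosolic sensor of long double-stranded RNA, gave 0.30 and 0.27. Both genes gave nearly the same value with either dye and were still well under 1.5-fold. IFI35 gave 0.15 and 0.59. IFI6, an inhibitor of apoptosis and of virus replication, gave 0.52 in the first hybridization and -0.003 in the second. IFI44L, the neighbour of IFI44, gave -0.02 and 0.04.

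Membrane restriction factors stop viruses at entry or release. IFITM2 (0.19 and 0.07) and IFITM3 (0.02 and 0.11), which block fusion in endosomes, were nearly level, and IFITM1, which acts at the cell surface, gave -0.06 and -0.59. The 3 IFITM genes are near-identical copies in parts of their sequence, so their probes may share transcripts. BST2, also called tetherin, which holds budding virus at the membrane, gave -0.71 and -0.06. The normalized signals of BST2 were 10061 and 14373 in cl-sh3 and 16488 and 14979 in control. They did not overlap, yet nearly the whole difference stood in 1 hybridization.

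The interferon-induced GTPases had a median of 0.03. MX1, which traps viral nucleocapsids and is a common readout of type I interferon, had normalized signals of 1447 and 1499 in cl-sh3 and 1391 and 1482 in control. The ratios of 0.06 and 0.02 left the clones level. MX2 gave 0.10 and -0.04, GBP1 gave 0.13 and 0.01, and GBP2 gave -0.34 and 0.11. GBP1 and GBP2 act on vacuoles of intracellular pathogens and are induced mainly by interferon gamma.

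Oligoadenylate synthetases make the second messenger that activates RNase L on double-stranded RNA. OAS3 was the one member beside ZBED2 past 1.5-fold in both hybridizations. Its normalized signals were 927 and 1011 in cl-sh3 and 605 and 557 in control. The cl-sh3 values did not overlap the control values, and the ratios of 0.62 and 0.86 had a mean of 0.74 (1.67-fold), at the 98.7th percentile of all named genes. The first ratio was just inside the 1.5-fold line of 0.58, and the nearest gene outside was IRF7, whose weaker value was -0.35. A second, dimmer OAS3 probe for the same transcript accession gave 0.13 and 0.33. With no background correction, or with the probes averaged, OAS3 no longer met the 1.5-fold rule.

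The neighbours of OAS3 on chromosome 12 did not share its ratio. OAS1 gave -0.13 and 0.20, and OAS2 gave 0.22 and -0.16. OASL, which lacks the enzyme activity and assists RNA sensing, gave 0.03 and -0.07. The median of the 4 genes was 0.03.

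The chemokines CXCL10 and CXCL11 attract T cells through CXCR3. CXCL10 gave 0.11 and -0.17 with signals between 136 and 153, and its control signal was not well above background in the second hybridization, so the clones could not be told apart at this signal. CXCL11 gave 0.12 and 0.24.

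The MHC class I genes encode the heavy chains and B2M the light chain of the peptide-presenting complex. Their median ratio was -0.02, and 5 of 5 were within 1.5-fold of the control. HLA-B gave 0.16 and 0.06, HLA-C 0.19 and -0.22, HLA-E -0.22 and 0.15, and HLA-F 0.02 and 0.33. The heavy chain genes are so alike that a probe may pick up transcripts of several of them. With loess the heavy chains showed no common direction by their brightest probes. A second HLA-B probe averaged 0.23, and the other HLA-E probes averaged 0.01 and 0.26. With the probes of a gene averaged, the median of the MHC class I genes was 0.08. With median centring in its place all 4 mean ratios lay above 0 (HLA-B 0.32, HLA-C 0.22, HLA-E 0.15 and HLA-F 0.30), and the median of the MHC class I genes went from -0.02 to 0.22.

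B2M had normalized signals of 64397 and 68274 in cl-sh3 and 80589 and 76240 in control. The cl-sh3 values lay below the control values in both hybridizations, with ratios of -0.32 and -0.16. The B2M probe was printed in 10 spots on each array, over which the software's ratio had a SD of 0.04 in the first and 0.07 in the second hybridization, near the median SD of 0.05 and 0.09 over all 264 probes with 10 spots. These SDs describe spots of one array, not cells. With median centring in place of loess, the mean ratio of B2M shrank from -0.24 to -0.04.

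The peptide loading genes had a median of 0.36, which fell to 0.23 in the second hybridization alone and to 0.24 with the probes of a gene averaged. TAP1, one chain of the transporter that carries peptides into the endoplasmic reticulum, had normalized signals of 13708 and 15831 in cl-sh3 and 10453 and 12561 in control. Its ratios of 0.39 and 0.33 differed by 0.06, and the signals of the clones did not overlap. TAP2, the other chain, gave 0.19 and -0.06.

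TAPBP, or tapasin, holds the empty class I molecule at the transporter. Its brightest probe had normalized signals of 10247 and 8457 in cl-sh3 and 5203 and 7215 in control. The values did not overlap, but the ratios were 0.98 and 0.23, the widest gap of the 40 genes at 0.75. The other 3 TAPBP probes, made against other transcript accessions, averaged 0.02, 0.04 and 0.30. TAPBP passed 1.5-fold by the mean of its brightest probe, 0.60, and not in the second hybridization. PFDN6, the gene ranked next after ZBED2, lies 2 protein-coding genes away from TAPBP, and RGL2 between them gave -0.11 and 0.01. In the stretch of 140 protein-coding genes from HLA-F to TAPBP on chromosome 6, 122 were measured, with a median of 0.08, and 4 were past 1.5-fold on the higher side and 0 on the lower side in both hybridizations, beside 1.6% and 2.61% of all named genes.

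**Figure D3:**
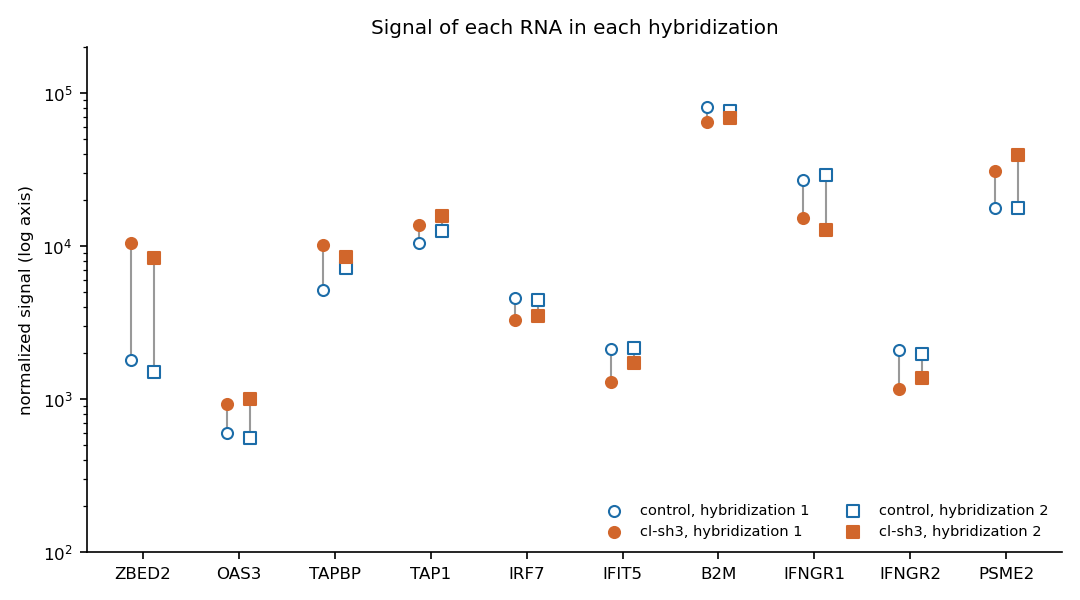
Normalized signal on a log axis (y axis) of control (open symbols) and cl-sh3 (filled symbols) in hybridization 1 (circles) and hybridization 2 (squares) for 10 named genes (x axis). The gap is widest for ZBED2, is of similar size in both hybridizations for OAS3 and TAP1, and lies in the opposite direction for IRF7, IFIT5, B2M, IFNGR1 and IFNGR2. Signals of different genes come from different probes and are not comparable with each other.

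The median ratios of genes with and without the core lay close together. The 21 measured members with an ISRE core had a median ratio of 0.07 and ran from -0.51 to 0.74. Leaving out ZBED2, which also lacks the core, the 8 without it had a median of 0.01 and ran from -0.05 to 0.37. Taken without its sign, the ratio had a median of 0.24 with the core and 0.05 without it. In all named genes with a promoter the same measure was 0.14 with the core and 0.15 without it. Among the members, 5 of the 8 without the core changed sign between hybridizations, as did 7 of the 21 with it. The median gap between hybridizations was 0.31 for the 8 and 0.26 for the 21. A gap between 2 readings and the size of their mean are unlike measures, so nothing is concluded from setting them side by side. Why the ratios with and without the core differ in size was not tested. Across all named genes with a promoter the medians were 0.00 for the 460 with the core and 0.01 for the 12389 without. Past 1.5-fold in both hybridizations, genes with the core held 1.30% on the higher and 3.26% on the lower side, against 1.53% and 2.62% of those without. The 43 matches in the members began between positions -221 and -12 counted from the start, with the middle one at -113.

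The RUNX core stood in 3 of the 31 member promoters (9.68%), against 19.3% of all genes in the table. These were STAT2, IFIT3 and IFITM1. Their ratios, given above, were near 0 for STAT2, opposite in sign in the 2 hybridizations for IFIT3 and below 0 for IFITM1. A match is a description of letters and not a bound site.

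**Figure D4:**
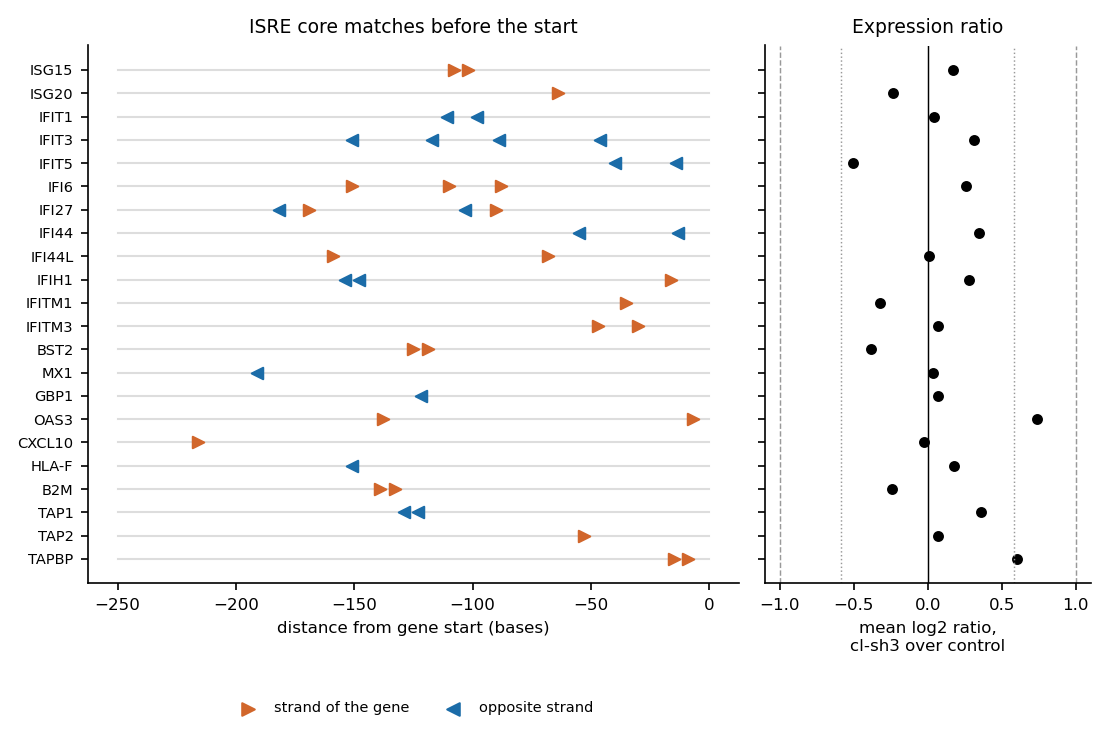
Left, positions of ISRE core matches in the 250 bases before the listed gene starts (x axis, bases) for the 22 genes that hold one (y axis), pointing right for the strand of the gene and left for the opposite strand. Right, mean log2 ratio of cl-sh3 over control of the same genes, with IFI27 not measured, dotted lines at 1.5-fold and dashed lines at 2-fold. The mean ratios run from -0.51 for IFIT5 to 0.74 for OAS3, both of which hold 2 matches.

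Upstream of the members stand the ligands, receptors and kinases. The interferon genes IFNA2, IFNB1, IFNE, IFNL1 and IFNL2 had mean ratios between -0.08 and 0.11 at dim signals. Of the 9 receptor and kinase genes, 1 was past 1.5-fold on the lower side in both hybridizations and 0 on the higher side, where 2.61% and 1.6% of all named genes stood. That gene was IFNGR1, the ligand-binding chain of the interferon gamma receptor. Its normalized signals were 15297 and 12753 in cl-sh3 and 27171 and 29376 in control, and its ratios of -0.83 and -1.20 had a mean of -1.02 (2.02-fold lower). IFNGR2, the signalling chain of the same receptor, had signals of 1176 and 1383 in cl-sh3 and 2101 and 1987 in control, with ratios of -0.84 and -0.52, the second just short of 1.5-fold. For both genes the 2 signals of cl-sh3 lay below the 2 signals of control, and only IFNGR1 met the rule.

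The receptor chains for the other interferons did not share this. IFNAR1 gave 0.02 and 0.49 and IFNAR2 gave 0.08 and -0.15. For the lambda receptor, IFNLR1 gave -0.12 and 0.05, and IL10RB gave -0.08 and 0.03. The kinase TYK2 gave 0.14 and 0.43. JAK1, which serves all of these receptors, gave -0.41 and 0.12 by its brightest probe but 1.27 and 1.30 by a second probe to the same accession, so its direction depends on the probe.

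Among 10 inhibitors of interferon signalling, 1 was past 1.5-fold on the higher side and 0 on the lower side. The shares of all named genes there were 1.6% and 2.61%. USP18, which strips ISG15 from proteins and blocks the type I receptor, gave 0.78 and 0.60, and its second probe averaged 0.25. In the 5 genes around the double-stranded RNA kinase PKR, 2 were past 1.5-fold on the lower side, beside 2.61% of all named genes. PRKRA, an activator of PKR also known as PACT, gave -1.18 and -1.25, with signals of 5050 and 4622 in cl-sh3 and 11479 and 11023 in control. THAP12, which is linked to PKR through its inhibitor DNAJC3, gave -1.85 and -1.57. Both met the 2-fold rule, as did 0.52% of all named genes on the lower side.

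Of 29 further interferon-stimulated genes measured, 0 were past 1.5-fold on the higher side in both hybridizations and 2 on the lower side, beside 1.6% and 2.61% of all named genes, and the median was -0.01. EPSTI1 gave -1.16 and -0.94 at signals between 249 and 578, and WARS1, the cytosolic tryptophanyl-tRNA synthetase that interferon gamma induces, gave -0.60 and -0.76. The lists of further IRF and STAT genes, nucleic acid sensors, further MHC class I genes with NKG2D ligands, and MHC class II genes held none past 1.5-fold in both hybridizations.

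The immunoproteasome cuts peptides for MHC class I. Its list with peptide trimming had a median of 0.40, and 7 of 7 mean ratios lay above 0, while 8548 of the 16150 named genes did. PSME2, a subunit of the proteasome activator PA28, was the one gene past 1.5-fold higher in both, beside 1.6% of all named genes. Its signals were 30943 and 39203 in cl-sh3 and 17676 and 17674 in control, with ratios of 0.81 and 1.15. Its partner PSME1 averaged 0.18. The catalytic subunits PSMB8, PSMB9 and PSMB10 averaged 0.24, 0.40 and 0.48. The trimming peptidase ERAP2 gave 0.34 and 1.02 by its brightest probe and averaged 0.18 by its second. NLRC5, also counted in this list, gave 0.30 and -0.26. Of 5 MHC chaperones, HSPA5 was past 1.5-fold on the lower side, beside 2.61% of all named genes. It gave -1.04 and -0.98, although its second probe averaged -0.15.

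**Figure D5:**
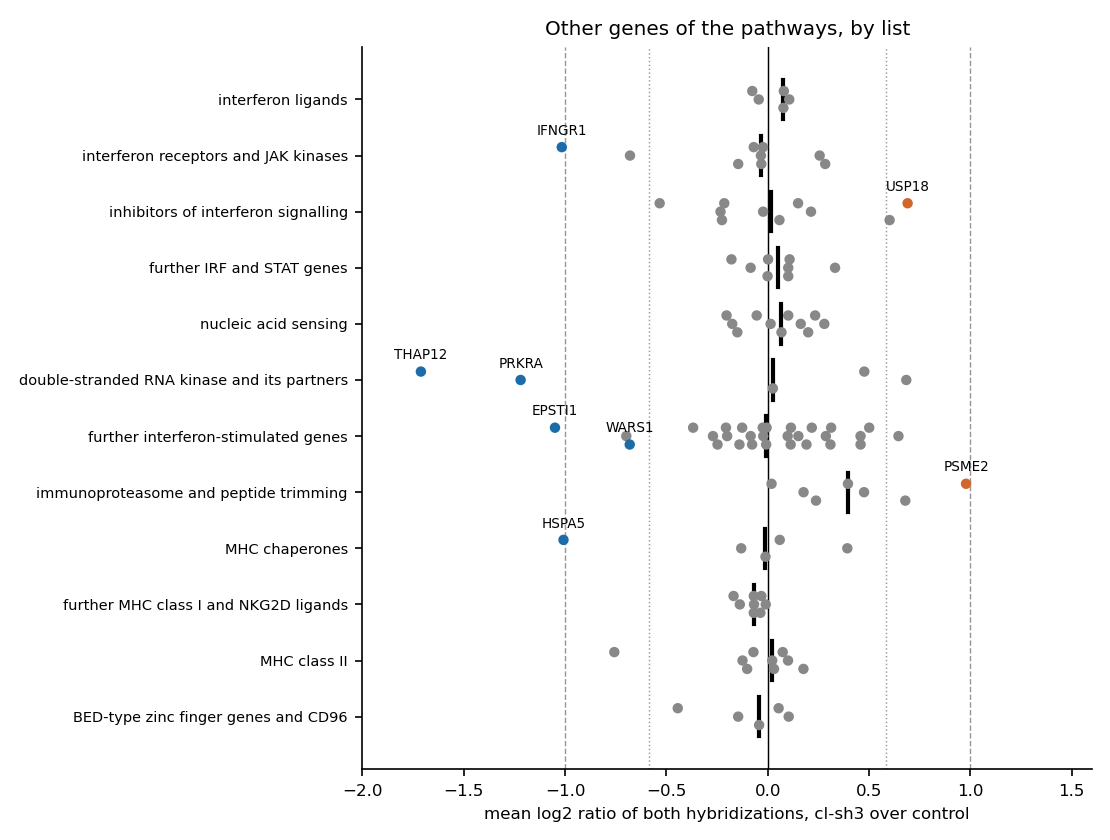
Mean log2 ratio of both hybridizations (x axis) for genes of 12 other lists (y axis), with a black bar at the median of each list, orange and blue points for genes past 1.5-fold on the higher or lower side both times, and grey points for the rest. Dotted lines mark 1.5-fold and dashed lines 2-fold. The coloured genes are IFNGR1, USP18, THAP12, PRKRA, EPSTI1, WARS1, PSME2 and HSPA5, and the immunoproteasome list has the median farthest from 0.

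Over these 12 lists together, 111 genes were measured, 2 stood past 1.5-fold on the higher side and 6 on the lower side in both hybridizations, beside 1.6% and 2.61% of all named genes. The median was -0.01.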

How the data were processed

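RNA of cl-sh3 and of the control clone was hybridized 2 times with dye reversal. The authors deposited spot intensity values (median pixel foreground and local background per dye) with flags, and log10 ratios of Cy5 over Cy3 made by Agilent Feature Extraction, version 10.5.1.1 per the file headers and 8.5.1.1 per the submitters' processing notes. A deposited table holds the same log10 ratios. The deposited well-above-background flags and probe accessions (other columns) were used as given.

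Intensities were background-corrected with normexp (offset 50) and loess-normalized with limma 3.58.1 (R 4.3.3). Control spots were removed after normexp, flagged spots were set to missing, and spots of a probe were averaged. The normalized signals are those after loess and Aquantile scaling. A probe passed when 1 RNA was well above background in at least 50% of its spots in both hybridizations, as 36065 of 41000 probes did. Of 19228 RefSeq accessions, 18024 received a symbol, from the GRCh38.p14 gene table or, for 1 accession of RUNX2, from the study's own list. The arrays were annotated on another build, so no probe coordinates are given.

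A gene counted as changed at 2-fold or 1.5-fold in the same direction in both hybridizations. The genes named were all 41 members, RUNX2, the 3 genes ranked after ZBED2, CD96 and most of the receptor and kinase genes. Genes of other lists past 1.5-fold were named too. Neighbouring genes, markers, the other ZBED and interferon genes, PSME1, the PSMB genes, ERAP2, NLRC5 and the genes under other observations stand outside this rule. They were named after their values were seen. Members and lists were chosen with earlier results of these data known. The script was tested on simulated data. The number of arrays limits the precision. Other normalizations, filters and probe rules were run as alternatives, with their effect given in the closing section.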

Additional observations from a re-analysis of the deposited data

How the results depend on the processing

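Besides each hybridization alone, 10 other ways of processing were tried. The median ratio of the members without ZBED2, 0.04, became 0.13 with median centring in place of loess, which moved the median of all named genes from 0.01 to 0.05, and ranged from 0.0719 to 0.113 in each hybridization alone. The count of members past 2-fold stayed at 1, ZBED2, in every setting. The count past 1.5-fold, 2, fell to 1 with no background correction and to 1 with probes of a gene averaged, both times through the loss of OAS3, and was 5 in each hybridization alone. Without the first hybridization these were ZBED2, OAS3, IFIT3, IFI35 and, lower, IFITM1, and without the second ZBED2, OAS3, TAPBP and, lower, IFIT5 and BST2. By the mean of both hybridizations the count was 3, with TAPBP added. ZBED2 itself ran from 2.44 to 2.54 over the alternatives that used both hybridizations. OAS3 ran from 0.48 to 0.83, and both genes kept their direction in each of these. The medians of the IFIT genes and of the transcription factors changed sign between the hybridizations. That of the MHC class I genes went from -0.02 to 0.22 with median centring and to 0.08 with the probes of a gene averaged. The cause of these shifts was not tested. No paired analysis was possible because both hybridizations compare the same pair of RNAs. CXCL10 dropped out where both RNAs had to be well above background. Dim signals limit what the chemokine, interferon, IFNAR2, IFNLR1 and CD96 probes can show. The same caution applies to IFIT3 (signals between 282 and 441), OAS1 (287 to 397) and STAT2 (326 to 502).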

Other observations

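Several genes of the other lists came close to the 1.5-fold rule or differed between probes, and are given here as values chosen after they were seen. Among interferon-stimulated genes, HERC5, the ligase that couples ISG15 to new proteins, gave 0.50 and 0.79. HERC6 gave 0.50 in both hybridizations by its brightest probe and averaged 0.19 by its second. USP18, the protease that removes ISG15, was higher too by its brightest probe, as described above. IFI16, a sensor of DNA in the nucleus, gave -0.93 and -0.47 by its brightest probe and averaged -0.53 by its second. EIF2AK2, which encodes the kinase PKR itself, gave 0.40 and 0.96, and DNAJC3, an inhibitor of PKR, gave 0.52 and 0.43, beside the lower values of PRKRA and THAP12. By the brightest probes, all of these signals were well above background in both RNAs.

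IRF2BP2, a corepressor that binds IRF2, averaged -0.53, -0.40 and -1.26 by its 3 probes. PIAS1, an inhibitor of STAT signalling, gave 0.55 and 0.66 by its brightest probe and averaged -0.00 by its second. APOL6 averaged 0.11 by its brightest probe and up to 0.99 by another. These probes of one gene read the same RNAs on the same arrays, and what sets them apart was not tested.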
